A study of Mus musculus with 24 samples.

Results

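Pleural tumors of mice given LNP-CDN were compared with pleural tumors of mice given PBS across all genes expressed in these tumors. A gene was taken as expressed when its FPKM, the deposited fragment count scaled by gene length and by library depth, was at least 1 in at least 3 of the 6 libraries. Of 54505 genes in the table, 12468 met this, and 12456 of them were tested. The edge of this rule held 433 genes that reached 1 FPKM in exactly 3 libraries, with a median over genes of the mean FPKM of 1.05, and 570 genes that reached it in exactly 2, with a median of 0.848. In 102 of the tested genes all the libraries at or above 1 FPKM came from 1 of the 2 groups, so a gene of this kind entered only through the group where it is high; 32 of them passed the test, and where one is named this is said.

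The tumors were part of a malignant pleural effusion that Lewis lung carcinoma (LLC), a transplantable mouse lung cancer line, had formed in C57BL/6 mice. On day 11 the LNP-CDN group received liposomal nanoparticles loaded with the cyclic dinucleotide cGAMP into the pleural space at a stated dose of 1 µg (the labels do not say whether of cGAMP or of particles), and the PBS group received phosphate-buffered saline by that route. Tumors were taken on day 13, digested with enzymes, depleted of red cells and extracted, which gave 3 libraries per group. The same model gave 3 tumor libraries with LNP-CDN plus the anti-PD-L1 antibody 10F.9G2, 3 with that antibody alone, and 3 libraries per treatment from pleural fluid cells, among them LNP-CDN and PBS. There were 3 mice per treatment, and the labels do not say whether a fluid and a tumor library came from the same mouse. Age is not given in the sources used here, and each library is of whole digested tumor, so carcinoma cells and host cells are read together.

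cGAMP is the natural ligand of STING, a membrane protein of the endoplasmic reticulum encoded by Tmem173. STING recruits the kinase TBK1, which phosphorylates the transcription factor IRF3 and so turns on type I interferon genes. Secreted interferon binds the receptor IFNAR on the same and neighbouring cells, and signalling from the receptor then switches on the interferon-stimulated genes, whose products block viral replication, sense nucleic acids and raise antigen presentation. Interferon gamma, a product of T and NK cells, acts through its own receptor on an overlapping set, among them the guanylate-binding and immunity-related GTPases. Macrophages, monocytes and dendritic cells express STING and are common in tumors.

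The 3 LNP-CDN libraries held 14584438 to 24561108 reads recovered from the FPKM values, and the 3 PBS libraries held 16504715 to 19781622. Transcripts of the mitochondrial genome took 1.26 to 1.56% of reads with LNP-CDN and 1.33 to 1.85% with PBS. As a check of the tissue, mesenchymal and keratin genes were high in both groups, with Vim at a mean of 412 FPKM in both and Krt18 at 128 FPKM with LNP-CDN and 115 FPKM with PBS, while the epithelial adhesion genes Cdh1 and Epcam averaged at most 0.251 FPKM in either group. The lung surfactant genes Sftpa1 and Sftpd were at 0 in every library of the comparison, and 11 of 14 lung epithelial genes stayed under 1 FPKM. PBS replicate 1 stood apart: the Y-linked gene Ddx3y was at 3.55 FPKM there and at no more than 0.0205 FPKM in the other 5 libraries, and Xist was at 104 FPKM there, against 67.2, 64.6 and 68.8 FPKM with LNP-CDN and 79.0 and 72.7 FPKM in the other PBS libraries. LNP-CDN replicates 1 and 3 stood apart in skeletal muscle genes, given below. What these libraries contribute to each result is given by leaving them out.

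LNP-CDN raised 275 of the 12456 genes (2.21%) and lowered 216 (1.73%), 3.94% together, at a Benjamini-Hochberg adjusted p under 0.05 in limma on log2(FPKM + 1). All fold changes below are log2 differences on that scale, LNP-CDN minus PBS, ± the standard error, and they understate the change of low genes. Most changes were small: the median was 0.44 over the raised genes, -0.40 over the lowered genes and 0.01 over all genes. Over 1 log2 unit there were 43 raised genes and 6 lowered ones. Without adjustment 21.9% of the tested genes had p under 0.05. Genes whose lowest and highest libraries did not overlap between the groups were far more frequent than called genes, at 25.7% of all tested, 13.6% higher with LNP-CDN and 12.1% lower. With 3 libraries per group an exact permutation test cannot go below p = 0.1, so the calls rest on a spread shared across genes and across 12 tumor libraries. The number of calls depended on single libraries: it was 24 without LNP-CDN replicate 3, 91 without PBS replicate 2, 121 without LNP-CDN replicate 1, 151 without PBS replicate 1, 183 without LNP-CDN replicate 2 and 635 without PBS replicate 3. Among the 76 named genes that passed, Ccl5, Irf7, Ifi27l2a, Oas2, Adar, Ddx58, Slfn4, Ly6c2, Car3 and Marco passed whichever single library was left out. The other 66 all missed the threshold without LNP-CDN replicate 3, some of them also without other libraries, and each kept its direction.

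**Figure D1:**
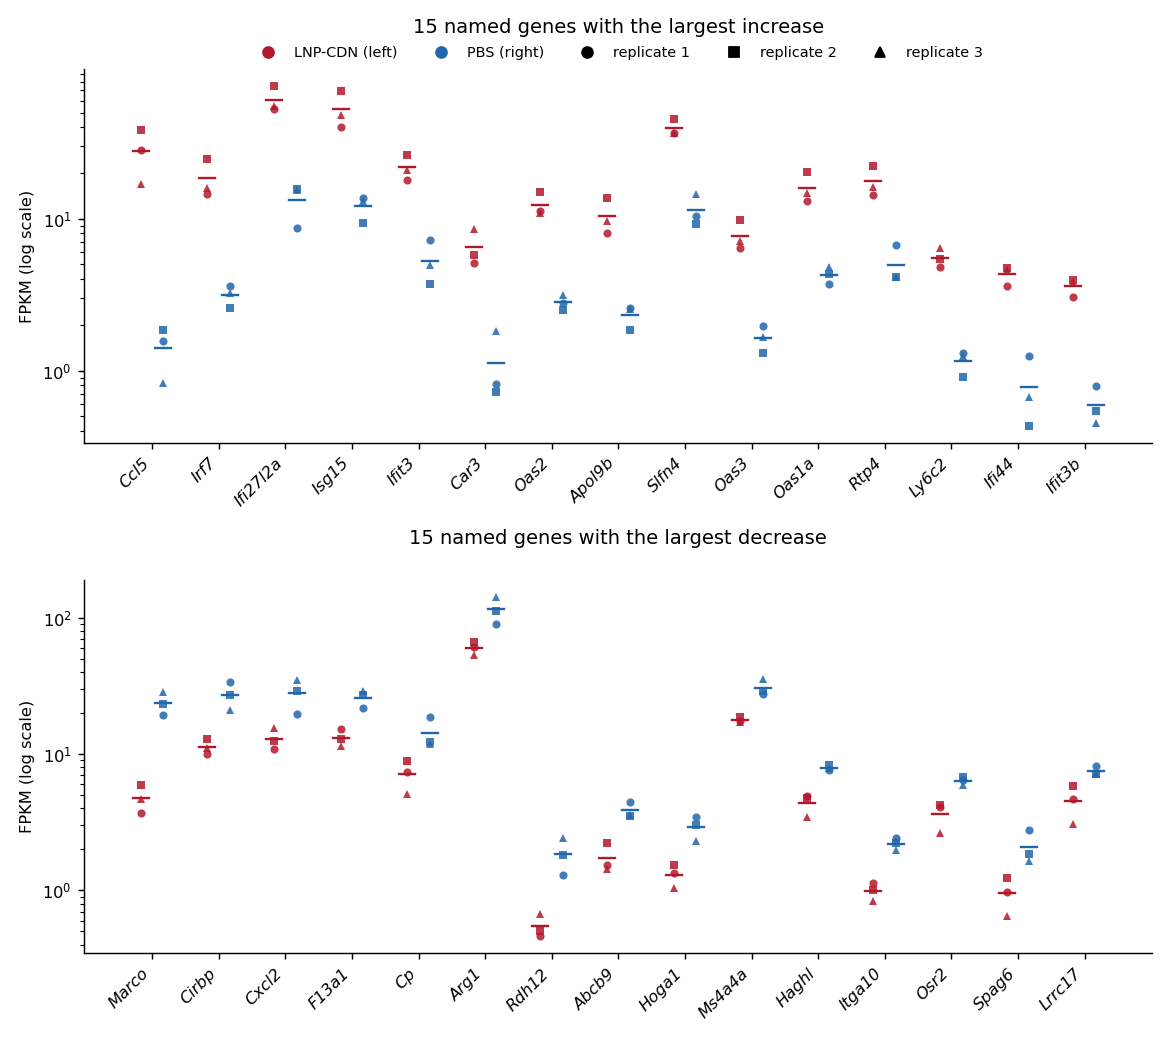
FPKM on a log axis in each of 3 LNP-CDN and 3 PBS tumor libraries. Shown are the 15 raised and 15 lowered genes with the largest changes among those meeting the naming rule given below. Markers give the replicate and bars the group means. Groups do not overlap for any gene shown, which the choice of genes fixes, and Ccl5 and Marco lie farthest apart.

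Interferon-stimulated genes rose in number. Across 8 lists of interferon-related genes, 45 of 141 distinct tested members rose and 1 fell, the transcriptional cofactor Trim24, against 2.21% and 1.73% of all tested genes, and the median change of the 141 was 0.61. Of the 43 genes raised by over 1 log2 unit, 25 were on those lists. At the receptor and adaptor end of the pathway, among 17 members of the STING list 2 rose and the median was 0.08. Among 8 interferon and receptor genes 0 passed with limma or with limma-voom on recovered reads, and the median was 0.06. Of these 8, 2 had an unadjusted p under 0.05, against 21.9% of all genes. After rescaling to the same sum of FPKM the STING list and the interferon and receptor list had medians of -0.05 and -0.07. The median of all genes was then -0.11. Tmem173 itself, which encodes STING, was at 24.7, 26.8 and 28.3 FPKM with LNP-CDN and at 18.1, 20.5 and 20.6 FPKM with PBS, so its groups did not overlap, and it rose by 0.41 ± 0.10 (adjusted p = 0.0434), a call lost without any 1 of the 6 libraries. Tbk1 (-0.01, adjusted p = 0.928), Irf3 (0.17, adjusted p = 0.239) and the receptor chain Ifnar1 (-0.08, adjusted p = 0.503) did not pass. The deposited values of Ifnb1 and Ifng were not whole reads at the listed gene lengths and are not reported.

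Among transcription factors, Irf7, the factor that amplifies type I interferon and is itself induced by it, changed most. Irf7 (chromosome 7, 141262706 to 141266481, minus strand, GRCm38) lay at 14.6, 24.9 and 15.9 FPKM in LNP-CDN tumors and at 3.59, 2.59 and 3.22 FPKM in PBS tumors. Every LNP-CDN library was above every PBS library, and the increase was 2.20 ± 0.29 (adjusted p = 0.00824). Irf9, a DNA-binding factor of the interferon response, lay at 8.19, 9.72 and 8.26 FPKM with LNP-CDN against 5.19, 4.13 and 4.00 FPKM with PBS and rose by 0.84 ± 0.19 (adjusted p = 0.0394). Stat2 had groups that did not overlap, with a change of 0.75 ± 0.21, but missed the threshold at adjusted p = 0.0699. Of 13 IRF and STAT genes, Irf7 and Irf9 were the 2 that passed, against 2.21% of all genes raised. Irf9 missed the threshold without any 1 of the 6 libraries.

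The antiviral effectors were the list with the most calls, 25 of 41 tested members raised (2.21% of all genes were) and none lowered, with a median change of 0.89. Isg15, a ubiquitin-like protein attached to viral and host proteins, lay at 40.5, 69.3 and 48.5 FPKM with LNP-CDN and at 13.7, 9.42 and 13.1 FPKM with PBS. Ifi27l2a, a small interferon-induced membrane protein, lay at 52.6, 74.7 and 55.4 FPKM with LNP-CDN and at 8.66, 15.8 and 15.5 FPKM with PBS. In both genes all LNP-CDN libraries were well above all PBS libraries and replicate 2 was the highest, and the changes were 2.02 ± 0.35 (adjusted p = 0.0167) for Isg15 and 2.14 ± 0.20 (adjusted p = 0.00253) for Ifi27l2a. The oligoadenylate synthetase family, whose active enzymes make the messenger that activates RNase L, rose in 6 of 8 tested members, against 2.21% of all genes. Oas2 rose by 1.80 ± 0.21, Oas3 by 1.72 ± 0.28, Oas1a by 1.67 ± 0.27, Oasl2 by 1.37 ± 0.28, Oas1g by 1.21 ± 0.19 and Oasl1 by 1.15 ± 0.19, with adjusted p of 0.00722 to 0.0282. Of the IFIT proteins, which bind foreign RNA ends, Ifit3 rose by 1.88 ± 0.34, Ifit3b by 1.53 ± 0.22 and Ifit1bl1 by 1.13 ± 0.16, while Ifit1, at 14.9, 20.4 and 16.1 FPKM with LNP-CDN against 8.66, 3.50 and 5.25 FPKM with PBS, was separated without overlap but had an adjusted p of 0.0522. Ifit3b and Ifit1bl1 were under 1 FPKM in every PBS library and met the expression rule only through LNP-CDN. Oas1a, Oas1g, Ifit3 and Ifit3b have near-identical neighbours, and how reads were shared among such copies is not given in the sources used here.

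Other effectors raised were the virion tether Bst2 (1.36 ± 0.25), at 168, 235 and 185 FPKM with LNP-CDN against 88.6, 78.1 and 61.0 FPKM with PBS, the receptor transporter Rtp4 (1.65 ± 0.31), Ifi44 (1.59 ± 0.25) and the secreted glycoprotein Lgals3bp (1.34 ± 0.20). The viperin gene Rsad2 and the GTPase Mx1 had positive changes of 0.92 ± 0.26 and 0.61 ± 0.22 that did not pass, at adjusted p of 0.0732 and 0.15. Usp18, which removes Isg15 from proteins and damps receptor signalling, rose by 1.35 ± 0.26 (adjusted p = 0.025), and the RNA-editing enzyme Adar, at 10.0, 11.6 and 10.1 FPKM with LNP-CDN against 6.54, 6.98 and 7.08 FPKM with PBS, rose by 0.55 ± 0.08 (adjusted p = 0.00998). Across the 41 effectors LNP-CDN replicate 2 was the highest treated library for 32, and PBS replicate 1 was the highest control library for 25. The count of 25 raised effectors became 2 without LNP-CDN replicate 3, 9 without PBS replicate 2, 12 without LNP-CDN replicate 2 and 16 without PBS replicate 1 or LNP-CDN replicate 1, while the median change stayed between 0.80 and 0.97.

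Short stretches upstream of 4 of these interferon-stimulated genes and of Irf7 are shown because they carry, or lack, the core of the interferon-stimulated response element, the sequence that factors of the IRF family read. Each is the 250 bases before the gene's RefSeq start on the gene's own strand, 5′ to 3′, from RefSeq on GRCm38.p6, and capitals mark matches to GAAANNGAAA or, for a match on the other strand, TTTCNNTTTC. Isg15 (chr4:156200819-156201068, minus strand) held 3 overlapping matches, whose first bases lie 78, 72 and 66 bases before the start. RefSeq starts need not be those of the deposited table: the table's gene begins upstream of the RefSeq start for Oas3, Gbp2 and Irf7, so that 2, 61 and 57 bases of their windows lie inside the table's gene, the Gbp2 match among them.
Isg15: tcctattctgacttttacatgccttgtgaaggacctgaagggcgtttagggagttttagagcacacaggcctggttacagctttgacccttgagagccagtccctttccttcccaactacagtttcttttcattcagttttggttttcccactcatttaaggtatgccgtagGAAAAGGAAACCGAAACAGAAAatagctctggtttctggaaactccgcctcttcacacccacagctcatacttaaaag
Ifit3 (chr19:34583279-34583528, plus strand) held 2 matches, beginning 156 and 122 bases before the start.
Ifit3: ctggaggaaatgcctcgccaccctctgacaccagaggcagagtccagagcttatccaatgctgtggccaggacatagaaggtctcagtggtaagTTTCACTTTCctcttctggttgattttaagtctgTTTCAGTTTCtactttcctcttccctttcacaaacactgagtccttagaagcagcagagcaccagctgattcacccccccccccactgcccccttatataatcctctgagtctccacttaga
Oas3 (chr5:120777660-120777909, minus strand) held 1 match, beginning 75 bases before the start.
Oas3: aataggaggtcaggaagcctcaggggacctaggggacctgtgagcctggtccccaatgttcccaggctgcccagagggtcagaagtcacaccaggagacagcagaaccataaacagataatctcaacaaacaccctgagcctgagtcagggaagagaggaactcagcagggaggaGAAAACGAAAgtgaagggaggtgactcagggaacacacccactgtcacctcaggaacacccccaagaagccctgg
Gbp2 (chr3:142620413-142620662, plus strand), a guanylate-binding GTPase described below, held 1 match, beginning 59 bases before the start.
Gbp2: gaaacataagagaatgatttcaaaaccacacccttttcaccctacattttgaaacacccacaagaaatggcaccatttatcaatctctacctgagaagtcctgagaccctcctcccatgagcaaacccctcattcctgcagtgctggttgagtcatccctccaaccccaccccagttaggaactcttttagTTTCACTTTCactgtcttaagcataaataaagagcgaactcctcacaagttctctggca
Irf7 (chr7:141266425-141266674, minus strand) held none in this window.
Irf7: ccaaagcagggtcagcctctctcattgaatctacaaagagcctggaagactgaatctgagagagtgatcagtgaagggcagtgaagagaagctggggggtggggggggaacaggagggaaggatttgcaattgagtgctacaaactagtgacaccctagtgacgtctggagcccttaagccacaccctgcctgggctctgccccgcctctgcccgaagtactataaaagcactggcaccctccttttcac

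Over all 32851 windows of this length in the RefSeq table, 978 (2.98%) held at least 1 match. Counted by gene, matches were found in 296 of 8839 expressed genes that had a window (3.35%), in 25 of 214 raised genes (11.7%) and in 4 of 152 lowered genes (2.63%). Of the raised genes over 1 log2 unit, 17 of 33 held a match (51.5%). By list, matches were found in 13 of 33 antiviral effectors (39.4%), 6 of 13 sensors (46.2%), 9 of 9 interferon-inducible GTPases and 3 of 19 MHC class I and peptide loading genes (15.8%), against 0 of 9 heat shock genes and 0 of 24 cell cycle genes. A match is a string of letters in a window and not a measured site of binding.

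Among the sensors of foreign RNA and DNA, 9 of 17 tested members rose (2.21% of all genes did), none fell, and the median change was 0.76. Ddx58, which encodes the RNA sensor RIG-I, lay at 12.3, 13.0 and 11.6 FPKM with LNP-CDN and at 6.15, 6.08 and 6.13 FPKM with PBS. The groups were narrow and well apart, and Ddx58 rose by 0.90 ± 0.13 (adjusted p = 0.00998). Its regulator Dhx58 rose by 0.84 ± 0.15 (adjusted p = 0.0167), while Ifih1, which encodes MDA5, changed by 0.57 ± 0.17 (adjusted p = 0.0842). Zbp1, a sensor of Z-form nucleic acid that can start necroptosis, lay at 9.06, 14.4 and 17.4 FPKM with LNP-CDN against 5.87, 4.08 and 3.92 FPKM with PBS and rose by 1.35 ± 0.31 (adjusted p = 0.0425). The DNA-binding HIN-200 family genes Ifi204 (1.21 ± 0.29), Ifi205 (1.16 ± 0.21) and Ifi207 (0.60 ± 0.11) rose too. Mlkl, the pore-forming effector of necroptosis, rose by 0.37 ± 0.09 (adjusted p = 0.0475), and with Zbp1 it was 1 of 2 genes raised among 25 cell death genes. The count of 9 raised sensors became 2 without LNP-CDN replicate 3 or PBS replicate 2 and 4 without LNP-CDN replicate 2, and the calls of Zbp1, Ifi204 and Mlkl were lost without any 1 of the 6 libraries.

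The interferon-inducible GTPases, guanylate-binding and immunity-related proteins that attack vacuoles of intracellular pathogens and are strong targets of interferon gamma, had the largest median of the interferon lists at 1.23, yet 0 of 14 passed with limma. At an unadjusted p under 0.05 there were 10, against 21.9% of all genes, and 1 passed with limma-voom on the recovered reads. Changes ran from 0.83 to 1.41, all 14 positive, and 9 of the 14 were higher without overlap between groups, against 13.6% of all genes. Igtp lay at 29.0, 36.8 and 54.7 FPKM with LNP-CDN and at 23.9, 12.5 and 9.08 FPKM with PBS (1.41 ± 0.50, adjusted p = 0.136). Gbp2 lay at 63.2, 76.2 and 124 FPKM with LNP-CDN against 60.1, 32.1 and 18.4 FPKM with PBS (1.33 ± 0.54, adjusted p = 0.183). In all 14 genes LNP-CDN replicate 3 was the highest treated library and PBS replicate 1 the highest control library, and the summed level over the list was 212, 259 and 418 FPKM with LNP-CDN and 203, 95.3 and 66.7 FPKM with PBS, so LNP-CDN replicate 1 and PBS replicate 1 lay side by side. Without PBS replicate 1, the library with Y-linked transcripts, the median was 1.62 and none of the 14 passed.

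**Figure D2:**
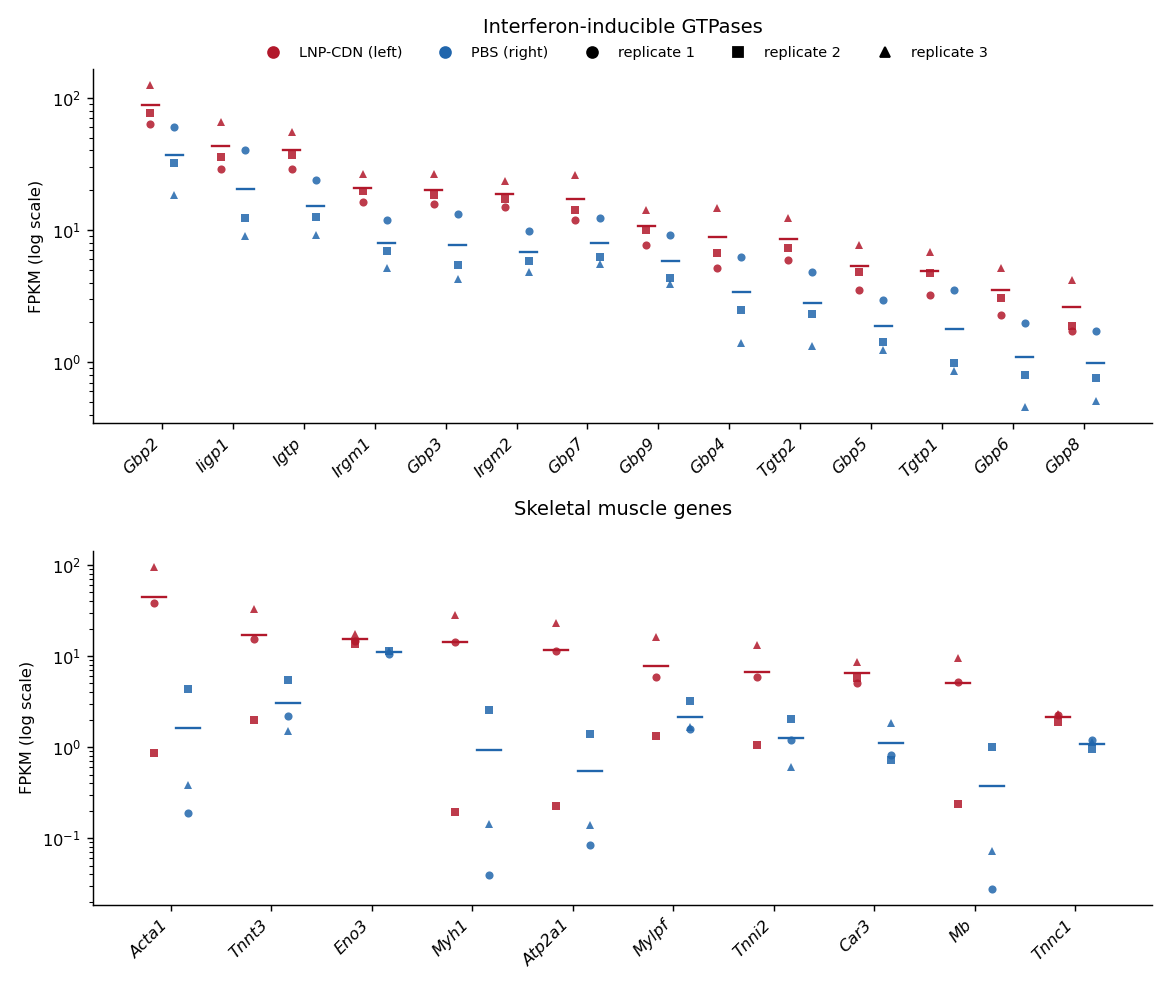
FPKM on a log axis for the 14 interferon-inducible GTPase genes and the 10 expressed skeletal muscle genes in the 3 LNP-CDN and 3 PBS tumor libraries; marker shapes give the replicate and bars the group means. The GTPases are highest in LNP-CDN replicate 3 and, among controls, in PBS replicate 1, and the muscle genes are highest in LNP-CDN replicate 3.

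Changes of MHC class I genes, which present antigen to CD8 T cells, were modest in size. All 25 tested genes of the class I and peptide loading list had positive changes, with a median of 0.53. Without overlap between groups there were 19, against 13.6% of all genes, but 6 passed, against 2.21% of all genes raised. H2-Q6 lay at 14.8, 17.6 and 20.5 FPKM with LNP-CDN and at 7.89, 7.18 and 7.94 FPKM with PBS and rose by 1.09 ± 0.20 (adjusted p = 0.0225). The other 5 were the nonclassical genes H2-Q7 (0.95 ± 0.21), H2-T24 (0.71 ± 0.13) and H2-Q5 (0.69 ± 0.15), the loading chaperone Tapbp (0.65 ± 0.16) and calreticulin, Calr (0.49 ± 0.12). The light chain B2m, at 1069, 1279.8 and 1304 FPKM with LNP-CDN against 956, 841 and 684 FPKM with PBS, was separated without overlap at 0.57 ± 0.22 (adjusted p = 0.161), and the heavy chain H2-K1 was at 0.59 ± 0.23 (adjusted p = 0.163). The peptide transporter Tap1 (0.72 ± 0.28) and the immunoproteasome subunit Psmb8 (0.71 ± 0.28) did not pass either. The H2-Q genes resemble each other closely, so their reads may be shared. None of the 6 calls was robust to leaving out a library: 0 genes passed without LNP-CDN replicate 2 or 3 or PBS replicate 2, 1 without LNP-CDN replicate 1 or PBS replicate 1, and 3 without PBS replicate 3.

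Of 6 tested genes of MHC class II, which presents antigen to CD4 T cells, 0 passed with limma or limma-voom, and the median was -0.38. At an unadjusted p under 0.05 there were 0, against 21.9% of all genes. H2-Aa lay at 5.20, 6.46 and 10.9 FPKM with LNP-CDN and at 15.0, 9.84 and 11.1 FPKM with PBS, overlapping, with a change of -0.64 ± 0.40 (adjusted p = 0.379). The highest libraries in all 6 genes were again LNP-CDN replicate 3 and PBS replicate 1.

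Ccl5, a chemokine that draws T cells, NK cells and monocytes, had the largest increase of all 12456 genes. Ccl5 (chromosome 11, 83525778 to 83530518, minus strand, GRCm38) lay at 28.5, 38.3 and 16.9 FPKM in LNP-CDN tumors and at 1.57, 1.84 and 0.834 FPKM in PBS tumors. The lowest LNP-CDN library was far above the highest PBS library, and the increase was 3.53 ± 0.36 (adjusted p = 0.00314). It was the 1 CC chemokine or receptor raised among 14, against 2.21% of all genes. The monocyte chemokine Ccl2 had overlapping groups, at 158, 158 and 140.3 FPKM with LNP-CDN against 141, 139.6 and 145 FPKM with PBS (0.10 ± 0.11, adjusted p = 0.659). Among 17 CXC and other chemokines and receptors 0 rose and 1 fell with limma, against 2.21% and 1.73% of all genes. With limma-voom 3 passed. Of these 17, 7 had an unadjusted p under 0.05, against 21.9% of all genes. The interferon-induced T cell chemokines Cxcl10, at 15.6, 16.1 and 22.5 FPKM with LNP-CDN against 7.77, 4.43 and 3.86 FPKM with PBS, and Cxcl9, at 10.9, 12.1 and 26.8 FPKM with LNP-CDN against 11.6, 5.08 and 2.48 FPKM with PBS, had changes of 1.62 ± 0.41 (adjusted p = 0.0541) and 1.34 ± 0.60 (adjusted p = 0.217), without overlap for Cxcl10 and with overlap for Cxcl9.

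The neutrophil chemokine Cxcl2 went the other way. It lay at 10.9, 12.5 and 15.7 FPKM with LNP-CDN and at 19.8, 29.1 and 35.2 FPKM with PBS, with no overlap, and fell by 1.03 on the log2 scale (SE 0.24, adjusted p = 0.0432). This call was lost when any 1 library other than PBS replicate 1 was left out. Neutrophil markers summed to 106 to 139 FPKM with LNP-CDN and 119 to 177 FPKM with PBS over the 17 genes of the list. Among its 11 tested members the collagenase gene Mmp8 rose, at 4.21, 5.33 and 4.33 FPKM with LNP-CDN against 2.19, 2.10 and 1.96 FPKM with PBS (0.86 ± 0.17, adjusted p = 0.027), and the alarmin S100a8 did not pass (-0.47 ± 0.24, adjusted p = 0.274). Among 14 cytokines of inflammation, 2 rose (2.21% of all genes did). They were the interleukin-1 receptor antagonist Il1rn, at 5.72, 5.75 and 5.29 FPKM with LNP-CDN against 1.76, 2.93 and 3.63 FPKM with PBS (0.84 ± 0.16, adjusted p = 0.025), and the macrophage growth factor Csf1 (0.41 ± 0.09, adjusted p = 0.041). Il6 did not pass, at 0.43 and an adjusted p of 0.337. Of 20 NF-kB targets and feedback genes 1 rose, near the 2.21% of all genes: Traf1 (0.44, adjusted p = 0.0466), which was under 1 FPKM in every PBS library and met the expression rule only through LNP-CDN.

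Of 5 tested genes on the cytotoxic list 2 rose (2.21% of all genes did), Gzma and Ccl5. Gzma, a granule protease of cytotoxic T and NK cells, lay at 2.77, 1.74 and 3.77 FPKM with LNP-CDN and at 0.664, 0.155 and 0.106 FPKM with PBS. All LNP-CDN libraries exceeded all PBS libraries, and Gzma rose by 1.51 ± 0.22 (adjusted p = 0.0112), but it met the expression rule only through LNP-CDN. Gzmb, at 2.73, 3.64 and 8.14 FPKM with LNP-CDN against 1.74, 1.12 and 0.967 FPKM with PBS, did not pass (1.26 ± 0.51, adjusted p = 0.182), nor did Prf1, which encodes perforin (0.93 ± 0.38, adjusted p = 0.19). Among 5 tested NK cell markers 0 passed with limma or limma-voom, and 1 had an unadjusted p under 0.05, against 21.9% of all genes. Of the 5, 2 had a positive change and the median was -0.16. The whole NK list summed to 57.8 to 73.2 FPKM with LNP-CDN and to 54.6 to 64.8 FPKM with PBS. Of its 13 genes in the deposited data 7 stayed under 1 FPKM in every library, so the sum does not measure NK cells. T cell markers were also too low for a statement on T cells. Of 21, 3 passed the expression rule, of which 0 passed with limma or limma-voom and 1 had an unadjusted p under 0.05. On the whole list 14 genes stayed under 1 FPKM in every library, and Cd8a and Cd3e were at 0.261 to 1.28 and 0.160 to 0.512 FPKM with LNP-CDN and at 0.0881 to 0.574 and 0.0637 to 0.249 FPKM with PBS. The summed T cell list was 10.8 to 24.1 FPKM with LNP-CDN and 7.95 to 11.4 FPKM with PBS. In these bulk samples fewer cells of a type and less RNA per cell cannot be told apart. Among 13 tested checkpoint genes 1 rose and 1 fell, against 2.21% and 1.73% of all genes. Of the 13, 6 had a positive change, and the median was -0.01. Lgals9, which encodes galectin-9, lay at 28.4, 37.0 and 31.0 FPKM with LNP-CDN against 19.1, 21.0 and 20.7 FPKM with PBS and rose by 0.63 ± 0.13 (adjusted p = 0.0282). Cd274, which encodes PD-L1, was at 11.0, 12.8 and 15.7 FPKM with LNP-CDN against 9.83, 8.48 and 8.76 FPKM with PBS, without overlap but not past the threshold (0.49 ± 0.24, adjusted p = 0.267).

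Marco, a scavenger receptor of macrophages that binds bacteria and modified lipoproteins, had both the largest decrease and the smallest adjusted p of all genes. Marco (chromosome 1, 120474538 to 120505024, minus strand, GRCm38) lay at 3.67, 5.92 and 4.72 FPKM with LNP-CDN and at 19.5, 23.2 and 28.8 FPKM with PBS. The highest LNP-CDN library was far below the lowest PBS library, and the decrease was -2.11 ± 0.15 (adjusted p = 0.000313). The sum of general macrophage markers was 721 to 843 FPKM with LNP-CDN and 706 to 812 FPKM with PBS. Marco was the 1 of 21 tested members that passed, near the 3.94% of all genes that did. Their median change was 0.04 (-0.10 after rescaling to the same sum of FPKM, which moved the median of all genes to -0.11). Adgre1, which encodes the macrophage marker F4/80, was at 24.2, 20.8 and 22.8 FPKM with LNP-CDN and 13.4, 20.0 and 20.2 FPKM with PBS (adjusted p = 0.24).

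Arg1, the arginase of alternatively activated macrophages, lay at 61.1, 66.6 and 53.4 FPKM with LNP-CDN and at 90.3, 113 and 143 FPKM with PBS, with no overlap, and changed by -0.90 ± 0.14 (adjusted p = 0.0116). It was the 1 gene that passed among 10 of that list, against 3.94% of all genes, and the list median was -0.32. The transglutaminase F13a1, at 15.3, 12.9 and 11.5 FPKM with LNP-CDN against 21.7, 27.1 and 29.1 FPKM with PBS, changed by -0.92 ± 0.20 (adjusted p = 0.0375), and the membrane protein Ms4a4a by -0.75 ± 0.13 (adjusted p = 0.0189). The haemoglobin scavenger receptor Cd163, at 3.64, 2.79 and 3.09 FPKM with LNP-CDN against 4.99, 7.12 and 10.6 FPKM with PBS, had no overlap but missed the threshold (-0.99 ± 0.27, adjusted p = 0.0642), and the mannose receptor Mrc1 was at -0.41 ± 0.22 (adjusted p = 0.302). Arg1 missed the threshold without LNP-CDN replicate 3, and F13a1 without any 1 of the 6 libraries.

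Monocyte genes moved in both directions, 3 raised and 1 lowered of 13, against 2.21% and 1.73% of all genes. Ly6c2, the surface marker of inflammatory monocytes, lay at 4.79, 5.45 and 6.38 FPKM with LNP-CDN and at 1.31, 0.910 and 1.25 FPKM with PBS and rose by 1.60 ± 0.21 (adjusted p = 0.00803). Ms4a4c, at 9.16, 9.57 and 11.5 FPKM with LNP-CDN against 4.53, 3.53 and 3.48 FPKM with PBS, rose by 1.19 ± 0.22, and Plac8, at 16.5, 21.8 and 25.4 FPKM with LNP-CDN against 9.83, 8.52 and 10.0 FPKM with PBS, rose by 1.07 ± 0.23. The lowered member was F13a1. Ccr2, the receptor that brings monocytes out of marrow, changed by -0.38 (adjusted p = 0.236). Slfn4, a Schlafen gene of interferon-exposed mouse myeloid cells, lay at 36.7, 45.2 and 36.5 FPKM with LNP-CDN against 10.4, 9.19 and 14.6 FPKM with PBS and rose by 1.72 ± 0.22 (adjusted p = 0.0078). Ly6c2 has the near-identical neighbour Ly6c1, and Apol9b, which rose by 1.76 ± 0.27, has Apol9a.

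Of 12 heat shock and chaperone genes 5 rose, against 2.21% of all genes. All 12 had positive changes, 11 of them after rescaling to the same sum of FPKM, with a median of 0.39. The largest was Hsph1, a cytosolic partner of Hsp70, at 29.7, 33.2 and 36.7 FPKM with LNP-CDN and 10.5, 14.2 and 19.1 FPKM with PBS (1.17 ± 0.16, adjusted p = 0.00893). Hspa8, the constitutive Hsp70, lay at 640.3, 623 and 628 FPKM with LNP-CDN against 440.1, 482 and 515 FPKM with PBS (0.40 ± 0.08), and Hspe1 (0.49 ± 0.12), Dnaja1 (0.34 ± 0.07) and Hsp90aa1 (0.29 ± 0.07) also rose, with adjusted p up to 0.0449. The cold-inducible RNA-binding protein gene Cirbp was among the 6 lowered by over 1 log2 unit, at 10.1, 12.8 and 11.1 FPKM with LNP-CDN against 33.7, 27.3 and 21.3 FPKM with PBS (-1.19 ± 0.17, adjusted p = 0.00998). Its relative Rbm3, chosen after its values were seen, lay at 52.0, 62.1 and 50.2 FPKM with LNP-CDN against 86.7, 71.7 and 74.5 FPKM with PBS and changed by -0.50 ± 0.10 (adjusted p = 0.027). The 5 raised chaperones became 0 without LNP-CDN replicate 3, 1 without LNP-CDN replicate 2, PBS replicate 1 or PBS replicate 2, and 2 without LNP-CDN replicate 1. Hsph1 and Cirbp lost their calls only without LNP-CDN replicate 3 among these 6 exclusions.

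Oxygen and sterol genes showed small changes in a few members. Of 24 hypoxia and glycolysis genes 3 fell (1.73% of all genes did) and none rose, with a median of -0.01. They were the oxygen sensor Egln3, at 65.3, 77.5 and 72.6 FPKM with LNP-CDN against 101, 98.0 and 103 FPKM with PBS (-0.48 ± 0.09), Pdk1, which holds pyruvate back from mitochondria, at 13.2, 15.3 and 13.5 FPKM with LNP-CDN against 19.8, 20.2 and 19.8 FPKM with PBS (-0.48 ± 0.08), and the disulfide-forming oxidase Ero1l, at 44.6, 46.2 and 46.6 FPKM with LNP-CDN against 55.2, 59.7 and 67.5 FPKM with PBS (-0.40 ± 0.10). The PBS values of Egln3 and Pdk1 lay within a narrow band, well apart from those of LNP-CDN. In sterol metabolism Insig1, which restrains cholesterol synthesis, and the synthesis enzyme Lss changed by -0.53 ± 0.09 and -0.37 ± 0.09, and the cholesterol exporter Abcg1 rose by 0.56 ± 0.13, out of 17 tested. The 3 hypoxia calls became 0 without LNP-CDN replicate 3 and 1 without LNP-CDN replicate 1, PBS replicate 1 or PBS replicate 2.

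Of 30 cell cycle genes 1 rose, near the 2.21% of all genes: the replicative helicase subunit Mcm5 (0.40 ± 0.10, adjusted p = 0.0497). In this list 28 of 30 had a positive change (18 after rescaling to the same sum of FPKM, which moved the median of all genes to -0.11). Of the 30, 8 were higher without overlap and 9 had an unadjusted p under 0.05, against 13.6% and 21.9% of all genes. The list median was 0.17, and the proliferation marker Mki67 was at 0.06 (adjusted p = 0.776). Among 13 endothelial, 17 fibroblast and matrix and 4 mesothelial genes 0 passed with limma or limma-voom, and 2, 5 and 2 had an unadjusted p under 0.05, against 21.9% of all genes. The collagen gene Col1a1 was at 0.14 (adjusted p = 0.767). Single genes rose in the stress, respiratory and ribosomal lists, the stress-induced factor Ddit3 (0.55), the electron carrier Cycs (0.39) and Rpl13a (0.38), the last out of 24 ribosomal protein genes. Of the 6 genes lowered by over 1 log2 unit, Marco, Cirbp and Cxcl2 are named, and the naming rule given below left out the others. The remaining named decreases fell on no list. They were the copper carrier ceruloplasmin, Cp, at 7.43, 8.95 and 5.11 FPKM with LNP-CDN against 18.8, 12.3 and 12 FPKM with PBS (-0.91 ± 0.19), the retinol dehydrogenase Rdh12 (-0.86 ± 0.14), which met the expression rule only through PBS, the lysosomal peptide transporter Abcb9 (-0.84 ± 0.12), Hoga1 (-0.77 ± 0.12), Haghl (-0.74), the integrin chain Itga10 (-0.69), the transcription factor Osr2 (-0.69 ± 0.17), Spag6 (-0.65) and Lrrc17 (-0.65).

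Some raised genes belong to tissues next to the pleura. Car3, a carbonic anhydrase of muscle and fat, lay at 5.12, 5.81 and 8.62 FPKM with LNP-CDN and at 0.816, 0.726 and 1.83 FPKM with PBS and rose by 1.83 ± 0.24 (adjusted p = 0.00803), and the adipocyte hormone gene Adipoq, at 3.10, 2.39 and 5.38 FPKM with LNP-CDN against 0.816, 0.753 and 1.28 FPKM with PBS, rose by 1.20 ± 0.24 (adjusted p = 0.027). Adipocyte genes summed to 54.1, 53.0 and 82.7 FPKM with LNP-CDN and to 35.7, 38.7 and 49.9 FPKM with PBS. Of 8 tested 2 rose, Car3 and Adipoq, against 2.21% of all genes. Skeletal muscle genes summed to 133, 28.6 and 287 FPKM with LNP-CDN and to 19.1, 35.9 and 20.4 FPKM with PBS. LNP-CDN replicates 3 and 1 were the high libraries, while replicate 2 lay within the PBS range. The muscle actin gene Acta1 followed this at 38.7, 0.863 and 95.5 FPKM with LNP-CDN against 0.190, 4.33 and 0.382 FPKM with PBS (3.22 ± 1.41, adjusted p = 0.21). Of 10 muscle genes 1 rose, against 2.21% of all genes. It was Car3, already counted on the adipocyte list. Liver genes summed to 40.2, 2.80 and 3.02 FPKM with LNP-CDN and to 2.49, 3.51 and 5.00 FPKM with PBS, so replicate 1 alone was high. The part of these tissues in the other results was not tested.

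The same LNP-CDN dose was also given on top of anti-PD-L1, which allows the comparison to be repeated in other libraries: LNP-CDN plus anti-PD-L1 against anti-PD-L1 alone, with no library shared with the first comparison apart from the common estimate of spread. There 153 genes rose (1.23%) and 51 fell (0.409%), 1.64% together. Of the 491 genes called for LNP-CDN against PBS, 124 were also called here, 93 raised and 31 lowered in both, which is 25.3% of the 491 and 60.8% of the 204, and 0 were called in opposite directions. Of the 275 raised genes 269 had a positive change with anti-PD-L1, and of the 216 lowered genes 204 had a negative one. The median change here was 0.32 for the raised genes, -0.23 for the lowered genes and 0.01 for all genes. The count of 204 ranged from 18 to 335 when single libraries were left out. The anti-PD-L1 tumors carried Ddx3y reads and the tumors with both agents did not, so this comparison also sets libraries with and without Y-linked transcripts against each other.

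Ccl5 rose in both settings. It lay at 33.0, 27.1 and 35.1 FPKM with both agents and at 3.46, 0.863 and 0.684 FPKM with anti-PD-L1 alone (3.76 ± 0.36, adjusted p = 0.00168). Irf7 lay at 24.6, 21.2 and 21.9 FPKM with both agents and at 7.15, 3.89 and 2.06 FPKM with anti-PD-L1 alone (2.24 ± 0.29), and Ifi27l2a at 81.1, 63.5 and 64.3 FPKM with both agents and at 12.6, 10.4 and 12.8 FPKM with anti-PD-L1 alone (2.44 ± 0.20). Antiviral effectors had a median of 0.85 with 27 raised, and sensors 0.84 with 7 raised, while the GTPases had a median of 0.50. Marco fell again, to 7.73, 9.39 and 8.99 FPKM with both agents, against 22.3, 24.4 and 20.4 FPKM with anti-PD-L1 alone (-1.27 ± 0.15, adjusted p = 0.00539). Arg1 changed by -0.72 ± 0.14 (adjusted p = 0.0303), and Egln3, Pdk1 and Ero1l by -0.50, -0.50 and -0.49. Some genes did not pass in this setting: Cxcl2, at 12.3, 8.18 and 10.6 FPKM with both agents and 12.7, 9.05 and 17.1 FPKM with anti-PD-L1 alone (-0.27, adjusted p = 0.634), Hsph1 (0.58 ± 0.16, adjusted p = 0.0984), Cirbp (-0.67, adjusted p = 0.0714), Gzma (0.88, adjusted p = 0.0698), Adipoq (0.17, adjusted p = 0.782) and Car3 (0.61 ± 0.24, adjusted p = 0.23). Whether these changes differed between the settings was not tested.

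**Figure D3:**
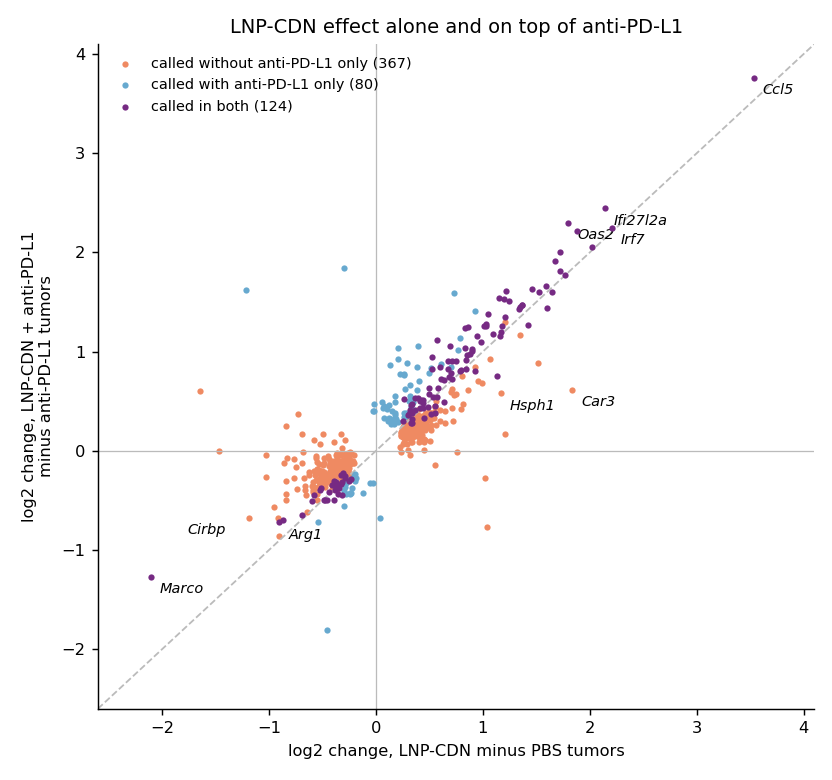
Log2 change of genes called in either comparison, LNP-CDN minus PBS on the x axis and LNP-CDN plus anti-PD-L1 minus anti-PD-L1 on the y axis, coloured by where they passed the threshold, with the line of equal change. The 124 genes called in both lie in the upper right and lower left.

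The change in tumors was set against the change in pleural fluid cells by the difference of the 2 LNP-CDN effects in 1 fit over all 24 libraries, in which 16.3% of 14356 genes differed, 8.45% with a more positive effect in tumors and 7.84% with a less positive one. Of the 275 genes raised in tumors 104 differed, 63 with the larger increase in tumors and 41 with the smaller. Of the 216 lowered genes 65 differed. Both sets were chosen by their tumor change, and the difference uses the same tumor libraries. These counts thus lean toward a larger effect in tumors. Ccl5 was not among the genes that differed: its level was 192 ± 10.7 FPKM in LNP-CDN fluid and 27.5 ± 3.33 FPKM in PBS fluid (SD, n = 3 each), and its tumor effect minus fluid effect was 0.76 ± 0.52 (adjusted p = 0.342). Ccl5 averaged 1.41 FPKM in PBS tumors, where log2(FPKM + 1) understates a change more than at its fluid level. Its difference may thus be understated too. Ifit3 rose in both, yet less in tumors, with 232 ± 93.1 FPKM in LNP-CDN fluid and 9.15 ± 1.22 FPKM in PBS fluid and a difference of -2.58 ± 0.52 (adjusted p = 0.00274). Marco had opposite signs in the 2 compartments. It lay at 107, 57.9 and 157 FPKM in LNP-CDN fluid and at 57.9, 49.8 and 77.2 FPKM in PBS fluid, overlapping, and the difference of effects was -2.81 ± 0.51 (adjusted p = 0.00128). Car3 was at most 0.251 FPKM in any of these fluid libraries, and its difference was 1.90 ± 0.28 (adjusted p = 0.000231). If fluid and tumor libraries share mice, the samples are not independent, which the fit ignores.

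**Figure D4:**
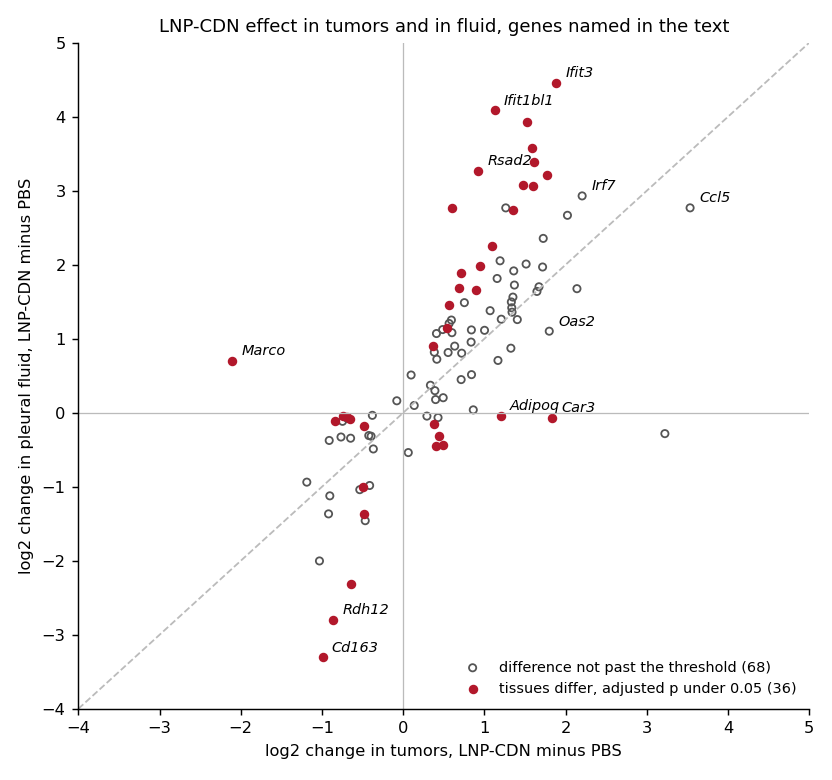
Log2 change, LNP-CDN minus PBS, in pleural tumors on the x axis and in pleural fluid on the y axis for 104 genes, with the line of equal change and the 36 genes whose effects differed marked. Ifit3, Ifit1bl1 and Rsad2 lie far above the line, Car3 and Adipoq lie below it, and Marco is negative in tumors and positive in fluid.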

How the data were processed

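RNA was sequenced from 24 libraries, of which 6 tumor libraries enter the comparison itself, 12 its fit and all 24 the difference from fluid. Per the labels' protocols, poly-A RNA was sequenced without strand information, so reads from a gene and from an antisense or overlapping gene are not separable. The authors deposited 1 FPKM value per gene and library. Tools listed in the submitters' processing notes are DESeq2, fastp, featureCounts and STAR, with the build mm9 and no versions or roles; the deposited coordinates match GRCm38 for 53474 of 54383 genes found in GENCODE M21 and are given as GRCm38.

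Multiplying FPKM by gene length and 1 factor per library gave whole reads, within 0.01 read, for at least 99.92% of values in every library. In tumors 19 genes gave no whole reads with their listed length, and 12 of these met the expression rule. These 12 were left out: Col4a1, Vegfa, Vegfb, Pdgfrb, Cdh5, Il10, Tgfb2, Gpr4, Il17f, Pou3f1, Angpt1 and Igf2. Of the other 7, Fgf9 carried the same 12 tumor values as another gene. 27 symbols stored as dates were restored from gene IDs.

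Tests used limma 3.58.1 in R 4.3.3 on log2(FPKM + 1), with moderated variances, a trend with the mean and two-sided Benjamini-Hochberg adjusted p over all genes tested, under 0.05. One fit covered 12 tumor libraries and 1 all 24 libraries. The steps were checked on simulated reads with known changes. These reads held no shift shared across genes beyond depth, so the check does not cover the dependence on single libraries. Python 3.11.15, pandas 2.3.3, numpy 2.4.6 and matplotlib 3.10.9 made tables and figures. Replicates of a group differed by more than sampling noise. The labels give 3 mice per treatment and no batch.

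Groups come from sample titles. The genes, 51 lists and tests were chosen with earlier results of these data known. Named genes are up to 15 raised and 15 lowered with the largest change, no overlap and a mean of at least 1 FPKM in the higher group, up to 5 called members with the smallest p per list, and a set of core genes named whatever their result; genes given beyond these, such as Oas1g, Oasl1, Tbk1, Irf3, Ifih1, Prf1, Tapbp, Adgre1 and Rbm3, were chosen after their values were seen. Predicted, ribosomal and mitochondrial symbols were left out of the largest changes. Lists are given by counts and medians. Alternatives were a pseudocount of 0.1, other filters, rescaling, fewer libraries, a replicate block, limma-voom on recovered reads, and each library left out. Scaling to total reads was added after seeing the data. Some items are not reported here.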

Additional observations from a re-analysis of the deposited data

Results flagged for a closer look

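The LNP-CDN effect of 36 named genes differed between tumor and fluid by the test of the difference itself (limma, adjusted p from 0.000108 to 0.0493). Values are tumor effect minus fluid effect in log2 units. A negative value means a less positive change in tumors. Genes named for their tumor change enter this difference through the same tumor libraries.

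Among the genes with positive changes in both compartments, 11 interferon-stimulated genes had the smaller change in tumors, whether or not their tumor change passed: Ifit1bl1 differed by -2.96, Ifit3 by -2.58, Ifit3b by -2.40, Rsad2 by -2.35, Mx1 by -2.16, Ifi44 by -1.98, Cxcl10 by -1.78, Ifit1 by -1.61, Apol9b by -1.44, Usp18 by -1.39 and Ddx58 by -0.77. The same held for the class I genes H2-T24 (-1.18), H2-Q6 (-1.16), H2-Q7 (-1.03) and H2-Q5 (-0.995), for Ly6c2 (-1.47), and for Abcg1 (-0.89), Ddit3 (-0.60) and Mlkl (-0.53). Some of these genes were low in tumors: Ifit1bl1, Ifit3b and Ly6c2 averaged 0.227, 0.598 and 1.16 FPKM in PBS tumors and 2.42, 1.59 and 26.4 FPKM in PBS fluid. For them the scale understates the tumor change more than the fluid change. Apol9b was the other way, at 2.32 FPKM in PBS tumors and 0.572 FPKM in PBS fluid.

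Genes lower with LNP-CDN in tumors, and less so or not in fluid on this scale, were Marco (-2.81), Abcb9 (-0.73), Haghl (-0.70), Itga10 (-0.63), Spag6 (-0.56) and Pdk1 (-0.30). In fluid Abcb9, Itga10 and Spag6 averaged under 1 FPKM, where log2(FPKM + 1) leaves little room for a change. Spag6 was at 0.0805 FPKM in LNP-CDN fluid and 0.150 FPKM in PBS fluid, so its difference can come from the scale. Genes with negative changes in both compartments and the larger decrease in fluid were Cd163 (2.31), Rdh12 (1.93), H2-Aa (1.68), Egln3 (0.89) and Rbm3 (0.50); the tumor changes of Cd163 and H2-Aa did not pass.

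Genes with a positive change in tumors and a negative one in fluid were Car3 (1.90), Adipoq (1.24), Calr (0.92), Mcm5 (0.85), Traf1 (0.76) and Rpl13a (0.53). Car3 and Adipoq were near 0 FPKM in fluid.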

How the results depend on the processing

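The count for LNP-CDN against PBS (491) was 98 without a filter, 29 after rescaling to the same sum of FPKM, 106 with the 6 libraries alone, and 186 with the replicate number as a block; leaving out single libraries gave 24 to 635. It was 721 with limma-voom on recovered reads, of which 451 were shared. Raised genes were 56.0% of calls, against 47.7% after scaling to total reads (244 raised, 268 lowered), 80.2% with the 6 libraries alone and 46.4% without LNP-CDN replicate 2. The same-sum scaling moved the median of all genes to -0.11. With anti-PD-L1 the count (204) was 78, 116, 5 and 106 under the same 4 settings and 358 with limma-voom, with a range of 18 to 335; the same-sum scaling moved its median to 0.23. The difference from fluid (2339) was 629 after same-sum scaling and 1632 to 2239 without single libraries.

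Ccl2 became -0.048 after same-sum scaling, Col1a1 -0.0053, and -0.054 without PBS replicate 1 and -0.099 without LNP-CDN replicate 3, and Mki67 -0.081, and -0.019 without LNP-CDN replicate 3 (over single libraries left out, Col1a1 ran from -0.099 to 0.31 and Mki67 from -0.019 to 0.16); none of these 3 passed under the main settings, and the cause was not tested. The replicate numbers do not pair the samples: same-numbered deviations correlated at 0.037, -0.069 and 0.038. Of the 76 named calls 23 held after same-sum scaling, 26 without a filter, 51 with the block and 76 with limma-voom, and none changed direction. With 3 libraries per group, small changes in variable genes were not detectable.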
